A study of Mus musculus with 6 samples.

Results

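The 7 genes Lrat, Rbp4, Plin2, Aldh1a1, Aldh1a2, Retsat and Rarb, which take part in the storage and use of vitamin A, were followed through the cells of the mouse liver. They were chosen by symbol and are 7 of the 25369 genes named over the files of 6 libraries. Each of the 7 was listed in every library. The libraries come from wild-type male mice that were operated on at 8 to 10 weeks of age: the inferior vena cava was partly tied off (pIVCL), which causes congestion of the liver. Osmotic pumps were put in 2 weeks later and treatment lasted 4 weeks. In 3 libraries the pump held CWHM-12, an inhibitor of integrins with the αV subunit, at 100 mg/kg/day, and in 3 it held the vehicle DMSO. All 6 livers were ligated, so neither group shows an unoperated liver. Batch 2024.6 of the labels holds CWHM-12 1, DMSO 1 and DMSO 2, and batch 2024.12 holds CWHM-12 2, CWHM-12 3 and DMSO 3. The labels print no mouse identifier, so p-values measure the spread between libraries, which may be technical.

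The liver holds most of the body's vitamin A. Hepatocytes take up retinol and release it to the blood bound to the carrier RBP4, while hepatic stellate cells turn retinol into retinyl esters with the enzyme LRAT and keep the esters in lipid droplets. Retinol that is not stored is oxidised to retinal and then, by enzymes such as ALDH1A1 and ALDH1A2, to retinoic acid, which switches genes on through nuclear receptors such as RARβ. Stellate cells are known to lose these droplets when they turn into matrix-producing cells, and the comparison asks whether the genes differ in the congested liver under the integrin inhibitor.

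The 6 files held 31294555, 40382504 and 48100436 UMIs (single counted molecules) in CWHM-12 1 to 3 and 30836277, 28220477 and 44557538 in DMSO 1 to 3. A filter on cells and doublets left 37992 cells, from 3127 to 8348 a library. At most 5 of 10000 barcodes were common to any pair of libraries. Cells were clustered without the 7 genes and named by marker genes, so that a class name means cells that resemble the type. Of the 16 stellate markers, 11 were higher in the stellate class than in any other class, as were 15 of 15 hepatocyte markers, 10 of 12 markers of the liver sinusoidal endothelium (LSEC) and 10 of 10 Kupffer cell markers. Fewer markers were highest in their own class for vascular endothelial cells (4 of 11), portal fibroblasts (4 of 9) and conventional dendritic cells (5 of 9). Those names are less sure. The classes held 2319 stellate cells, 8548 hepatocytes, 10219 LSEC and 5849 Kupffer cells. Per the labels, the suspension was made up to 90% nonparenchymal cells and 10% hepatocytes, so the share of hepatocytes is set by the preparation. It ran from 3.16% of kept cells in CWHM-12 2 to 45.0% in CWHM-12 1.

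The stellate class was not pure. Of its 9 sub-clusters, 4 were led by genes of hepatocytes, LSEC or macrophages. Sub-clusters 3 and 7 were led by hepatocyte genes, sub-cluster 4 by LSEC genes such as Kdr, and sub-cluster 6 by macrophage genes. These 4 held 33.9%, 49.8% and 55.2% of the stellate UMIs of CWHM-12 1 to 3 and 50.8%, 68.0% and 26.5% of those of DMSO 1 to 3. Kdr, a growth factor receptor of endothelium, stood at 228, 1038 and 1454 CPM (counts per 1000000 UMIs) in stellate cells of CWHM-12 1 to 3, against 666, 1055 and 344 CPM in DMSO 1 to 3. The 12 LSEC markers together took 0.199%, 0.719% and 0.847% of the stellate UMIs of CWHM-12 1 to 3, against 0.498%, 0.898% and 0.319% in DMSO 1 to 3. Stellate results are therefore given for the whole class and, where the value moves, without these 4 sub-clusters, a choice made after their leading genes were seen. Sub-cluster 8, with 33 cells, was led by markers of portal fibroblasts and smooth muscle cells such as Eln, Dpt and Acta2. It was not left out.

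Each gene had its own pattern over the classes. Levels are CPM on summed counts scaled with the TMM method, as the mean ± SD over libraries with at least 20 cells of the class, and classes are compared as a description, within a gene. Lrat, the enzyme that makes retinyl esters, was a stellate gene: it averaged 1654 ± 334 CPM in stellate cells (n = 6). Mesothelial cells came next among the classes with 4 or more libraries, at 78.0 ± 164 CPM (n = 5), and then hepatocytes, at 14.3 ± 12.8 CPM (n = 6). The stellate libraries, from 1249 to 2206 CPM, did not overlap those of any class compared here. Of all Lrat UMIs in kept cells, 77.0% were in stellate cells and 17.2% in clusters left unnamed.

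The mesothelial mean rested on 1 library. Lrat was at 12.9 and 2.01 CPM in mesothelial cells of CWHM-12 2 and 3, against 0, 4.82 and 370 CPM in DMSO 1 to 3. In DMSO 3, 4 of 29 mesothelial cells held all 107 Lrat UMIs, and Reln, a stellate marker, had 222 UMIs in the mesothelial cells of that library, against 0 to 12 in the other 5 libraries. Whether stellate transcripts in those cells account for the value was not tested. CWHM-12 1 had 11 mesothelial cells and was left out of every mesothelial value and fit.

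**Figure D1:**
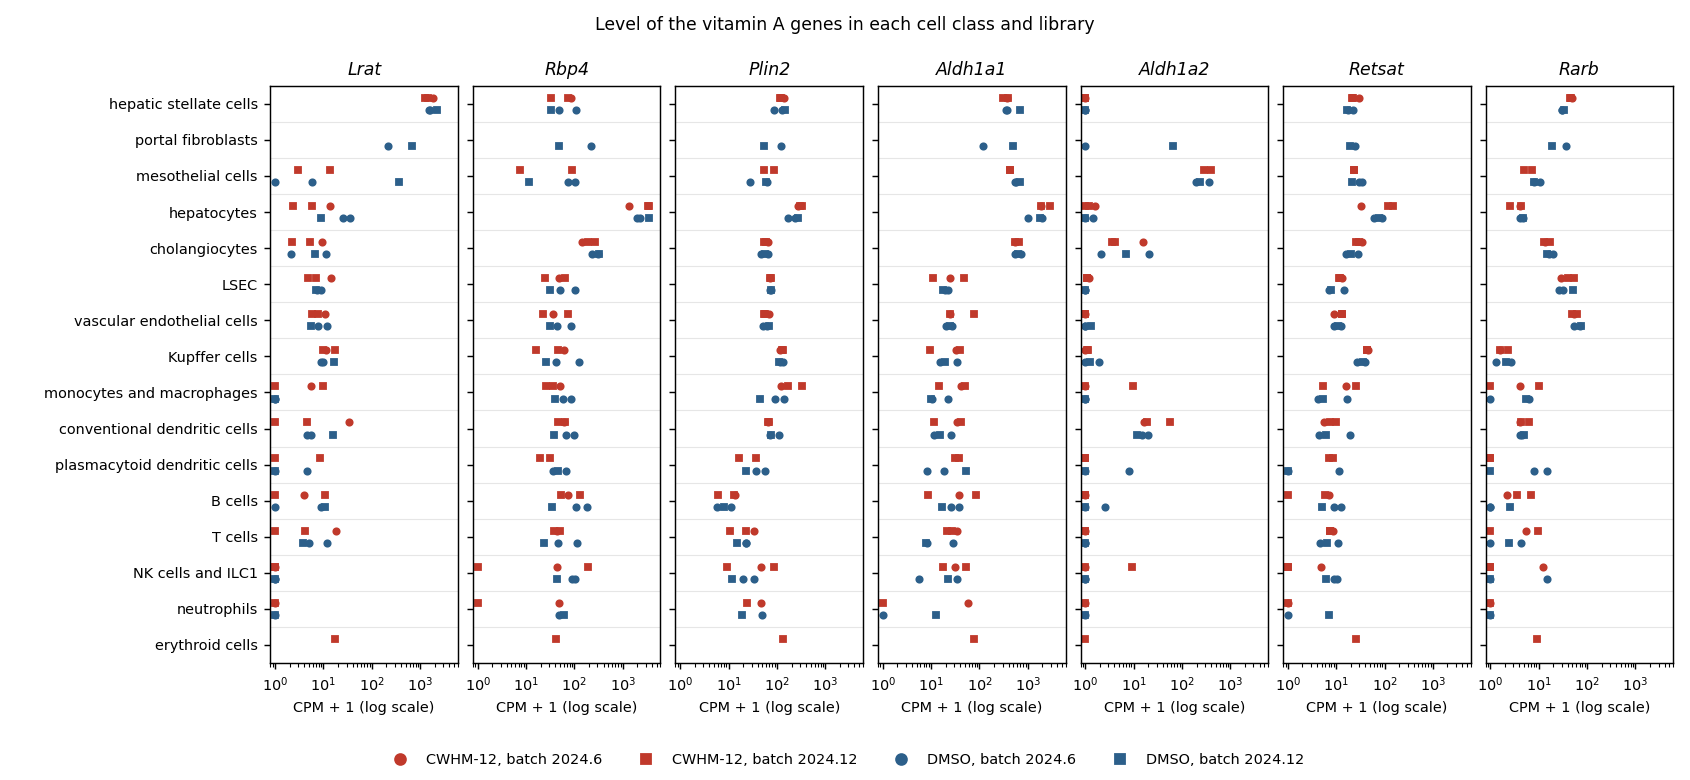
Level of each of the 7 genes (columns; CPM + 1 on a log scale) in each cell class (rows), with 1 point per library holding at least 20 cells of the class, CWHM-12 in red above DMSO in blue, circles for batch 2024.6 and squares for batch 2024.12. Lrat lies above 1000 CPM only in stellate cells, Aldh1a2 above 100 CPM only in mesothelial cells, and Rbp4 and Aldh1a1 above 1000 CPM only in hepatocytes; red and blue points overlap in nearly every row.

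Rbp4, the carrier of retinol in blood, averaged 2632 ± 919.5 CPM in hepatocytes and 240 ± 67.5 CPM in cholangiocytes (n = 6 each), and the libraries of the 2 classes did not overlap. In the other classes Rbp4 went with albumin, the most familiar hepatocyte transcript. For each 100 Alb UMIs there were 9.22 of Rbp4 in LSEC, 8.58 in Kupffer cells, 8.97 in B cells, 9.08 in T cells and 7.29 in stellate cells. Hepatocytes themselves had 13.3. Rbp4 averaged 96.6 ± 55.4 CPM in B cells, which are not known to make it, and 62.6 ± 30.4 CPM in stellate cells.

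Aldh1a1, a cytosolic enzyme that oxidises retinal to retinoic acid, was highest in 4 classes. It averaged 1900 ± 586 CPM in hepatocytes, 601 ± 76.2 CPM in cholangiocytes, 537 ± 110 CPM in mesothelial cells (n = 5) and 410 ± 132 CPM in stellate cells. Hepatocyte libraries lay above those of the other 3 classes, whose ranges overlapped each other. The next of the classes with 4 or more libraries, B cells, stood far below, at 34.2 ± 26.6 CPM. Portal fibroblasts, with 20 or more cells only in DMSO 1 and DMSO 3, had 118 and 490 CPM in them. For each 100 Alb UMIs there were 60.0 Aldh1a1 UMIs in stellate cells and 93.7 in mesothelial cells. Hepatocytes had 10.99, cholangiocytes 7.94 and B cells 2.79. The part of hepatocyte transcripts in the cholangiocyte level was not tested.

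Aldh1a2, the related enzyme known for making retinoic acid in mesothelium, was found mainly in mesothelial cells. Of its 696 UMIs in kept cells, 77.4% were in mesothelial cells, at 298 ± 85.5 CPM (n = 5). Conventional dendritic cells followed at 22.1 ± 17.1 CPM (n = 6), and then cholangiocytes at a mean of 7.88 CPM, with overlapping library ranges. Within the dendritic cells, cluster 28, which is led by Ccr7 and Cd209a, had 41.8 CPM, and cluster 27 had 2.68 CPM. No Aldh1a2 UMI was found among the 11930783 UMIs of stellate cells, where a count of 0 allows up to 0.821 CPM in the deepest library and 3.38 CPM in the shallowest.

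Rarb, the receptor RARβ and itself a known target of retinoic acid, was an endothelial and stellate gene. It averaged 59.2 ± 10.4 CPM in vascular endothelial cells, 37.9 ± 8.32 CPM in stellate cells and 37.5 ± 11.5 CPM in LSEC, and these 3 ranges overlapped. Cholangiocytes, at 14.7 ± 2.59 CPM, lay below LSEC without overlap. Kupffer cells had 0.940 CPM and hepatocytes 3.10 CPM. By summed counts 48.8% of the Rarb UMIs were in LSEC and 12.3% in stellate cells.

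Plin2 and Retsat were the most widely spread. Plin2, a coat protein of lipid droplets in many cell types, averaged 262 ± 57.5 CPM in hepatocytes, 148 ± 95.8 CPM in monocytes and macrophages, 122 ± 20.5 CPM in stellate cells and 122 ± 10.1 CPM in Kupffer cells, so that stellate cells did not stand apart. Retsat, which saturates retinol to dihydroretinol, averaged 87.1 ± 42.5 CPM in hepatocytes, 38.6 ± 6.86 CPM in Kupffer cells and 20.7 ± 4.62 CPM in stellate cells. Their library ranges for hepatocytes and Kupffer cells overlapped for Retsat and did not for Plin2.

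Genes with the most similar pattern were taken as the 3 with the highest Pearson correlation of log2(CPM + 1) over 83 sums of 16 classes, which share libraries and depth. For Lrat these included Bmp5 (r = 0.90) and Colec10 (0.88), each highest in stellate cells. Rbp4 was most like Gc (0.91), Serpina1a (0.90) and Serpina1c (0.88), plasma proteins of hepatocytes. Aldh1a2 was most like Esyt3 (0.88), Pdpn (0.81) and Foxo6 (0.81), each highest in mesothelial cells. Rarb was most like Ephb4 (0.86), Igfbp7 (0.85) and Col4a2 (0.85), and Aldh1a1 most like Me1 (0.88), Sox6 (0.87) and Gstm1 (0.87). The closest genes were less close for Plin2, with Cd302 at 0.79, Parp12 at 0.76 and Idh1 at 0.73, and for Retsat, with Osbpl1a, Tpi1 and Oplah all between 0.75 and 0.76.

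Treatment was compared with the quasi-likelihood test of edgeR on summed counts with a batch term, with p adjusted over all genes of a class. None of the 7 genes passed in any class. Over 14 classes, 50 tests of a member were made, and 0 were called at an adjusted p under 0.05. The smallest adjusted p of edgeR among them was 0.939, for Aldh1a1 in mesothelial cells. Of all genes tested, 0.0% were called in 12 of the classes, 0.288% in NK cells and ILC1 and 0.0171% in mesothelial cells. Without adjustment, 3 of the 50 had p under 0.05, and 27 of the 50 differences were positive and 23 negative. DESeq2 and limma voom also called 0 members.

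**Figure D2:**
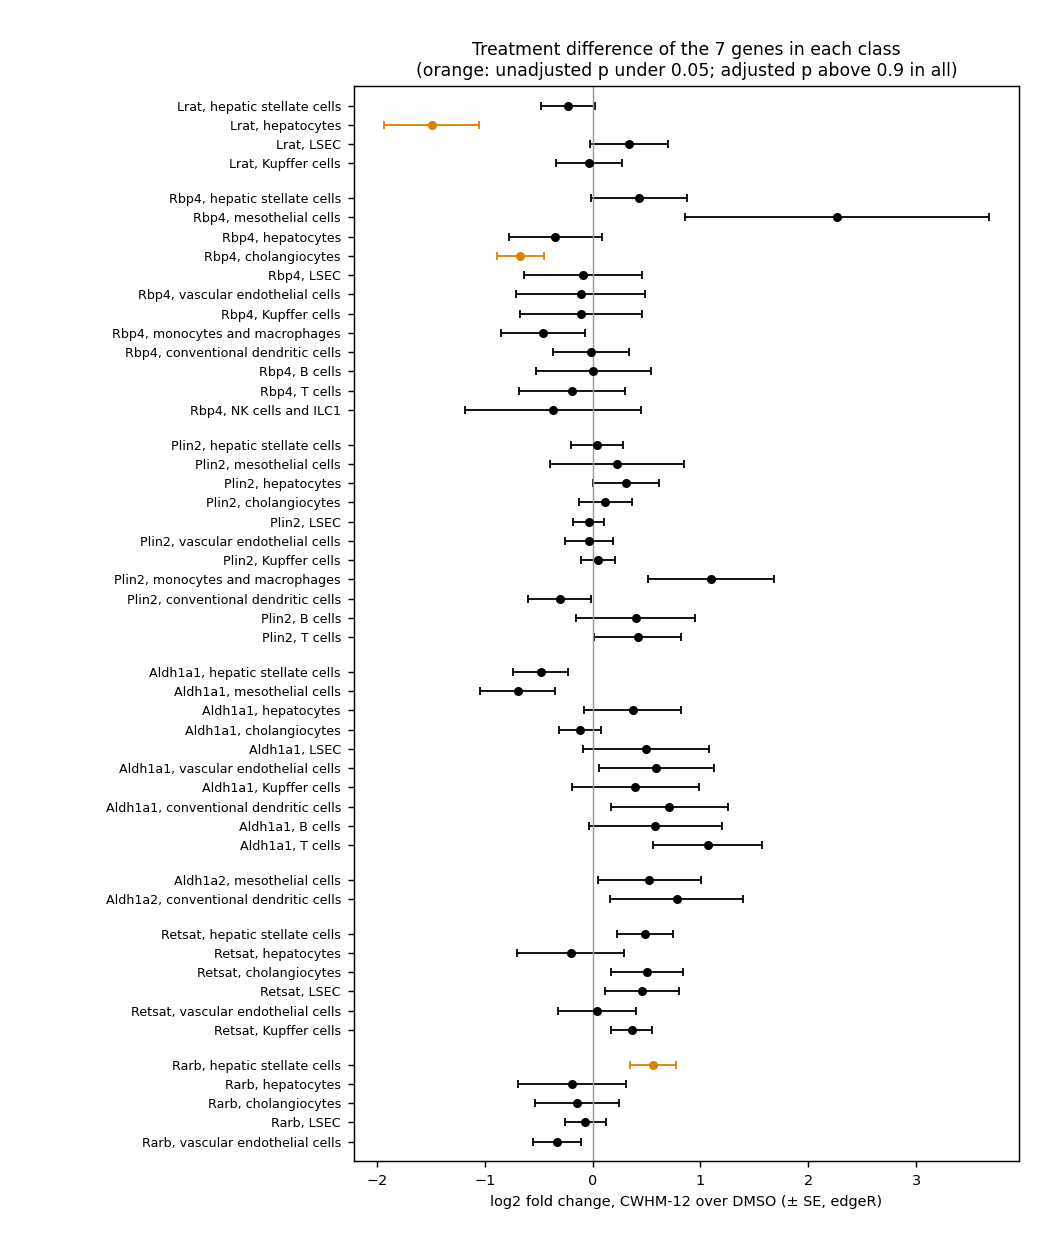
Log2 fold change of each of the 7 genes, CWHM-12 over DMSO, in each class where it was tested (points; bars are the standard error of the edgeR fit), grouped by gene. Most points lie within 1 of zero on both sides; the 3 in orange, Lrat in hepatocytes, Rbp4 in cholangiocytes and Rarb in stellate cells, had an unadjusted p under 0.05 and no adjusted p below 0.939.

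In stellate cells Lrat stood at 1849, 1249 and 1474 CPM in CWHM-12 1 to 3, against 1525, 1621 and 2206 CPM in DMSO 1 to 3. The groups overlapped, with DMSO 3 highest and CWHM-12 2 lowest. The log2 fold change was -0.23 (SE 0.25, edgeR, adjusted p = 0.999). The difference of mean log2 CPM was 0.24 in batch 2024.6 and -0.70 in batch 2024.12, so its sign was not the same in the batches. The log2 fold change was 0.28 without DMSO 3 (SE 0.27), where only batch 2024.6 still holds both groups. It was -0.31 without the 4 sub-clusters of mixed cells (SE 0.21). Of 10118 genes tested in stellate cells, 0 were called by edgeR (0.0%), by DESeq2 and by limma voom, and 167 had an unadjusted p under 0.05.

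The share of stellate cells with a Lrat UMI overlapped between the groups as well. Each cell was thinned to 1000 UMIs, which left out 40, 20 and 0 stellate cells of CWHM-12 1 to 3 and 79, 3 and 45 of DMSO 1 to 3. The share was then 79.6%, 68.8% and 74.5% in CWHM-12 1 to 3, against 72.6%, 77.7% and 78.1% in DMSO 1 to 3. The means of 74.3% ± 5.42 and 76.1% ± 3.05 (SD, n = 3 each) differed by -1.82 points (exact two-sided permutation test, p = 0.7, where 0.1 is the smallest p that 3 against 3 allows). Unthinned, the share ran from 83.7% to 95.3% in CWHM-12 and from 83.4% to 93.4% in DMSO. B cells, which should lack Lrat, had a share of 0% to 0.820% after thinning, with a median depth of 1102 to 3086 UMIs before thinning against 1942 to 4938 UMIs in stellate cells. The median stellate cell held 1 Lrat UMI per 1000 in each CWHM-12 library and 1, 2 and 2 in DMSO 1 to 3, and the 90th percentile was 3 to 5.

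Lrat differed widely among the stellate sub-clusters. In sub-cluster 0, led by Podn, Inmt and Ogn, it was at 2459 CPM over all libraries. In sub-cluster 1, with Adcyap1r1 and Ngfr among its leading genes, it was at 2005 CPM. In sub-cluster 8, 33 cells led by Acta2, Eln and Dpt, markers of smooth muscle cells and portal fibroblasts, it was at 429 CPM. Whether those 33 cells are stellate cells was not tested. These levels use plain library sizes. Plin2 ran the other way between the first 2, at 108 CPM in sub-cluster 0 and 195 CPM in sub-cluster 1, and Aldh1a1 was at 674 and 453 CPM in them. The sub-clusters were made from these cells, so these are descriptions.

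Plin2 was at 139, 123.3 and 114 CPM in stellate cells of CWHM-12 1 to 3, against 87.1, 125 and 145 CPM in DMSO 1 to 3, a log2 fold change of 0.04 (SE 0.24, edgeR, adjusted p = 0.999). Without the mixed sub-clusters Plin2 was at 169, 134 and 121 plain CPM in CWHM-12 1 to 3, against 102, 96.5 and 149 in DMSO 1 to 3, with a log2 fold change of 0.19 (SE 0.25). The groups overlapped in both selections, with DMSO 3 the highest of the DMSO libraries. Aldh1a1 was at 369, 386 and 305 CPM in CWHM-12 1 to 3, against 355, 376 and 672 CPM in DMSO 1 to 3. Here 5 of the libraries lay close together and DMSO 3 was high. The log2 fold change of Aldh1a1 was -0.48 (SE 0.26, edgeR, unadjusted p = 0.101), with 0.02 in batch 2024.6 and -0.97 in batch 2024.12. Without DMSO 3, which leaves both groups only in batch 2024.6, it was 0.06 (SE 0.28). In sub-clusters 0 and 1 alone it was -0.68 (SE 0.23, edgeR, adjusted p = 0.998), where plain CPM was 369, 501 and 374 in CWHM-12 1 to 3 against 456, 565 and 774 in DMSO 1 to 3.

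Retsat was at 28.9, 20.7 and 20.9 CPM in stellate cells of CWHM-12 1 to 3, against 21.2, 16.7 and 15.8 CPM in DMSO 1 to 3. The groups overlapped, since DMSO 1 lay above CWHM-12 2 and 3, and the log2 fold change was 0.49 (SE 0.26, edgeR, unadjusted p = 0.1002). Without the mixed sub-clusters Retsat was at 25.6, 20.7 and 20.997 plain CPM in CWHM-12 1 to 3, against 22.5, 27.2 and 16.03 in DMSO 1 to 3. DMSO 2 was then the highest library, and the log2 fold change was 0.22 (SE 0.32). Rbp4 was at 85.5, 31.5 and 74.2 CPM in CWHM-12 1 to 3, against 105, 47.0 and 32.2 CPM in DMSO 1 to 3, and Alb in the same sums at 1149, 499 and 885 CPM against 1397, 1224 and 292 CPM. Without the mixed sub-clusters the log2 fold change of Rbp4 was 0.31 (SE 0.37).

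**Figure D3:**
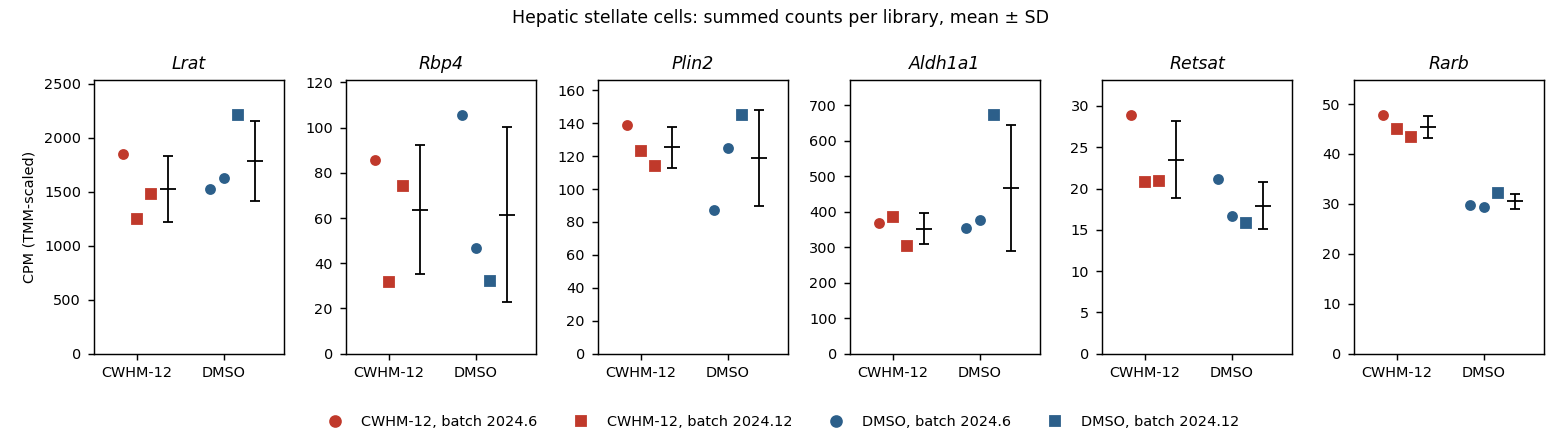
Level of 6 genes in hepatic stellate cells (CPM, TMM-scaled), 1 point per library, CWHM-12 left of DMSO, circles for batch 2024.6 and squares for batch 2024.12; bars are the mean ± SD of 3 libraries. Only for Rarb do the groups not overlap, at 43.4 to 47.7 CPM in CWHM-12 and 29.4 to 32.2 CPM in DMSO; for Lrat and Aldh1a1 the highest point is DMSO 3.

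Rarb was the member whose groups stood apart in stellate cells. It was at 47.7, 44.9 and 43.4 CPM in CWHM-12 1 to 3, from 43, 117 and 79 UMIs, against 29.8, 29.4 and 32.2 CPM in DMSO 1 to 3, from 52, 37 and 114 UMIs. Every CWHM-12 library lay above every DMSO library, as for 4.0% of all genes tested in stellate cells. The means were 45.4 ± 2.20 and 30.5 ± 1.52 CPM (SD, n = 3 each). The log2 fold change was 0.56 (SE 0.21, edgeR, unadjusted p = 0.0309, adjusted p = 0.999), and an unadjusted p under 0.05 with CWHM-12 higher was found for 0.89% of the genes. The difference was 0.67 in batch 2024.6 and 0.44 in batch 2024.12.

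The groups were not apart in stellate cells without the mixed sub-clusters. LSEC also express Rarb, and sub-cluster 4, with its LSEC genes, held 10.9%, 41.4% and 41.1% of the stellate UMIs of CWHM-12 1 to 3 and 29.5%, 56.1% and 16.2% of those of DMSO 1 to 3. Without the 4 mixed sub-clusters Rarb was at 51.1, 35.97 and 40.8 plain CPM in CWHM-12 1 to 3, against 32.01, 42.1 and 33.2 in DMSO 1 to 3, and the groups overlapped. The log2 fold change was then 0.29 (SE 0.27, edgeR, adjusted p = 1.00). Kdr was between 15.3 and 38.3 CPM in CWHM-12 and between 4.95 and 17.8 CPM in DMSO in these cells. Over all libraries Rarb was at 38.7 plain CPM in sub-cluster 4, against 36.7 and 39.5 in sub-clusters 0 and 1. Within sub-cluster 4 it was at 57.5 and 47.0 in CWHM-12 2 and 3, against 35.6, 16.9 and 27.1 in DMSO 1 to 3. Within sub-cluster 3 it was at 57.3, 49.2 and 70.3 in CWHM-12 1 to 3, against 21.9 and 38.6 in DMSO 1 and 2. These sums of sub-cluster 3 held 103666 to 274411 UMIs of all genes, so that few Rarb UMIs lie behind each value. The share of all genes in that order was not counted in sub-clusters 3 and 4. In sub-clusters 0 and 1 the groups overlapped. The share of stellate cells with a Rarb UMI after thinning was 6.17%, 2.80% and 4.41% in CWHM-12 1 to 3, against 2.07%, 4.73% and 2.65% in DMSO 1 to 3 (exact two-sided permutation test, p = 0.4), and 0% to 0.410% in B cells. Unthinned, it was 16.8%, 12.8% and 14.95% in CWHM-12 1 to 3, against 12.2%, 19.9% and 15.2% in DMSO 1 to 3. The part of endothelial transcripts in the difference of the whole class was not tested.

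**Figure D4:**
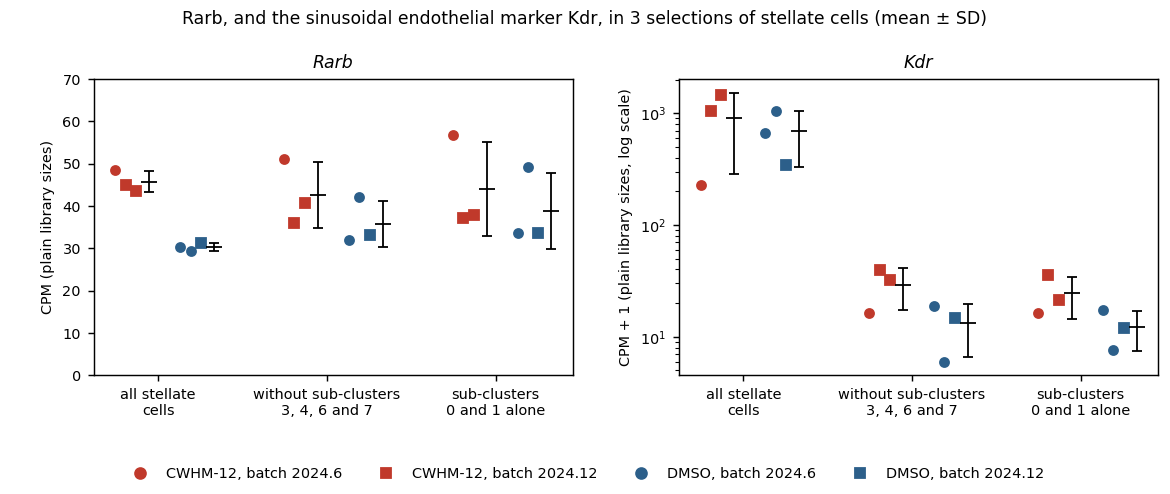
Rarb (left, CPM on plain library sizes) and the LSEC marker Kdr (right, CPM + 1 on a log scale) in 3 selections of stellate cells, 1 point per library, CWHM-12 left of DMSO in each pair; bars are the mean ± SD of 3 libraries. In all stellate cells the Rarb groups are apart; without sub-clusters 3, 4, 6 and 7 (51.1, 35.97 and 40.8 against 32.01, 42.1 and 33.2 CPM), and in sub-clusters 0 and 1 alone, they overlap and Kdr is lower in every library than in all stellate cells.

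In the endothelium the Rarb groups overlapped. In LSEC it was at 28.2, 38.9 and 51.7 CPM for CWHM-12 1 to 3, against 25.4, 30.1 and 50.4 CPM in DMSO 1 to 3, a log2 fold change of -0.07 (SE 0.19, edgeR, adjusted p = 0.998). The 3 libraries of batch 2024.12 lay above the 3 of batch 2024.6. In vascular endothelial cells it was at 52.1, 60.1 and 47.5 CPM in CWHM-12 1 to 3, against 52.3, 69.9 and 73.0 CPM in DMSO 1 to 3, a log2 fold change of -0.33 (SE 0.23, edgeR, unadjusted p = 0.187). Cluster 12 of the vascular cells had 71.6 CPM over all libraries and cluster 21 had 18.5 CPM.

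Cyp26b1, which breaks down retinoic acid and is itself induced by it, was abundant in the same endothelium and was looked at after its values were seen. LSEC had it at 269, 438 and 1768 CPM for CWHM-12 1 to 3, against 121, 76.2 and 384 CPM in DMSO 1 to 3. CWHM-12 3 stood apart, and CWHM-12 1 lay below DMSO 3. The log2 fold change was 1.48 (SE 0.53, edgeR, unadjusted p = 0.0290, adjusted p = 0.998). LSEC cluster 4 held 1375 of the LSEC cells of CWHM-12 3 and 796 of those of CWHM-12 2, against 53 to 67 cells in each of the other 4 libraries. Rarb within that cluster was at 40.4, 35.6 and 39.8 plain CPM in CWHM-12 1 to 3, against 22.6, 51.5 and 62.0 in DMSO 1 to 3. LSEC cluster 10, led by Cyp26b1 and Wnt2, had the highest Rarb of the LSEC clusters, at 72.9 CPM against 27.1 to 38.9 CPM in the others. It held 19, 443 and 925 cells of CWHM-12 1 to 3 and 20, 12 and 117 of DMSO 1 to 3. Rarb within it was at 65.8 and 73.2 CPM in CWHM-12 2 and 3, against 68.6 and 94.5 CPM in DMSO 1 and 3. The part of this uneven make-up in the LSEC values was not tested.

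The Rarb promoter is shown because it carries the classical response element of retinoic acid, here as the direct repeat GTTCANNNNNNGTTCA, and the promoter of Cyp26a1, another retinoic acid breakdown enzyme, beside it for its match on the opposite strand. Sequences are from RefSeq on build GRCm38.p6, read in the direction of the gene and ending 1 base before its start, with the matched bases in capitals. The deposited counts use build GRCm39, so the coordinates do not belong to them.
Rarb (chr14:16575477-16575726, minus strand): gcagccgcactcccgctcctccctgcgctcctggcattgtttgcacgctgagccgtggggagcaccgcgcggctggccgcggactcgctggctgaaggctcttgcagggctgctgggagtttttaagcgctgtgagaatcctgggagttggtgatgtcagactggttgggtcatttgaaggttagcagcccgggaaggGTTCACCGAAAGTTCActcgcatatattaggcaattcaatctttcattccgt
Cyp26a1 (chr19:37697754-37697807, plus strand): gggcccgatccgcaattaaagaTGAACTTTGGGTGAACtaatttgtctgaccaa
The Rarb match lies at bases -52 to -37 from the start. Both strands of windows of 300 bases, 250 before to 50 after the start, were searched, and 25 of 32851 promoters (0.0761%) held the repeat. All 7 genes had a promoter in the table, 9 promoters in all, and only Rarb's held a match. The related repeats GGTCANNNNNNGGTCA, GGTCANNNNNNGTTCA and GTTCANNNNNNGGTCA were in 0.1%, 0.0274% and 0.0426% of promoters and in none of the 9. A match is a match of letters and says nothing of binding in these cells.

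In hepatocytes no member was called either. Of 10339 genes tested, 0 were called by edgeR (0.0%) and 2 each by DESeq2 and limma voom, and 182 had an unadjusted p under 0.05. The median hepatocyte had 4.70%, 0.953% and 1.14% mitochondrial UMIs in CWHM-12 1 to 3, against 10.9%, 8.70% and 0.722% in DMSO 1 to 3, and the part of this in the differences was not tested. Rbp4 was at 1342, 3404 and 3373 CPM in CWHM-12 1 to 3, against 1937, 2227 and 3511 CPM in DMSO 1 to 3. The groups overlapped, with CWHM-12 1 lowest and DMSO 3 highest, and the log2 fold change was -0.34 (SE 0.43, edgeR, unadjusted p = 0.446). Aldh1a1 was at 1889, 1897 and 2839 CPM in CWHM-12 1 to 3, against 1998, 1001 and 1775 CPM in DMSO 1 to 3, a log2 fold change of 0.37 (SE 0.45, edgeR, unadjusted p = 0.426). Hepatocytes fell into different clusters in each library: cluster 11, with Aldh1a1 at 585 plain CPM, held 368 of the 469 hepatocytes of DMSO 2, the library with the lowest Aldh1a1, against 27 to 557 hepatocytes of the other 5 libraries. The part of this in the difference was not tested.

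Plin2 was at 271, 296 and 331 CPM in hepatocytes of CWHM-12 1 to 3, against 231, 166 and 278 CPM in DMSO 1 to 3. The groups overlapped, since DMSO 3 lay above CWHM-12 1, and the log2 fold change was 0.31 (SE 0.31, edgeR, unadjusted p = 0.340). Retsat was at 31.4, 152 and 116 CPM in CWHM-12 1 to 3, against 58.9, 86.9 and 77.4 CPM in DMSO 1 to 3. CWHM-12 1 was lowest and the other 2 CWHM-12 libraries highest, so that the difference was -1.17 in batch 2024.6 and 0.77 in batch 2024.12.

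Lrat in hepatocytes had the smallest unadjusted p of the 50 tests. It was at 12.8, 4.75 and 1.37 CPM in CWHM-12 1 to 3, against 34.8, 24.04 and 7.94 CPM in DMSO 1 to 3, from 210 UMIs in all. The log2 fold change was -1.49 (SE 0.44, edgeR, unadjusted p = 0.00708), and an unadjusted p under 0.05 with CWHM-12 lower was found for 1.24% of genes. The stellate matrix gene Dcn moved with it in the same hepatocyte sums, at 115, 117 and 28.2 CPM in CWHM-12 1 to 3, against 398, 217 and 112 CPM in DMSO 1 to 3. The 16 stellate markers together took 0.0348%, 0.0292% and 0.00741% of the hepatocyte UMIs of CWHM-12 1 to 3, against 0.116%, 0.0559% and 0.0244% in DMSO 1 to 3. For each 100 Dcn UMIs there were 9.37 of Lrat in hepatocytes and 7.49 in stellate cells. Among the hepatocyte clusters Lrat was highest in cluster 11, at 46.7 plain CPM, against 1.38 to 12.7 CPM in clusters 2, 8, 9 and 14. Cluster 11, which has Cyp3a25 and Abcc2 among its leading genes, held 557, 27 and 109 of the hepatocytes of CWHM-12 1 to 3 and 323, 368 and 87 of those of DMSO 1 to 3. The part of these stellate transcripts and of the clusters in the difference was not tested.

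Whether the treatment difference was the same in stellate cells and hepatocytes was tested directly, as class by treatment with the library as a block. Of 11629 genes 0 were called (0.0%), and 391 had an unadjusted p under 0.05. None of the 6 members tested was called. The stellate difference minus the hepatocyte difference was 1.33 for Lrat (SE 0.59, edgeR, unadjusted p = 0.0342) and -0.91 for Aldh1a1 (SE 0.57, edgeR, unadjusted p = 0.122).

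Within hepatocytes, Aldh1a1 was ordered by position in the lobule, and Retsat was too, but on few UMIs in some libraries. Clusters 2 and 14 are led by genes of hepatocytes near the central vein and clusters 8 and 9 by genes of hepatocytes near the portal tract. Aldh1a1 was at 3144, 3213 and 4115 plain CPM in the pericentral clusters of CWHM-12 1 to 3 and 3515, 4740 and 2827 in those of DMSO 1 to 3. In the periportal clusters it was at 1947, 1657 and 1863 CPM in CWHM-12 1 to 3 and 1439, 1647 and 1358 in DMSO 1 to 3. It was thus higher pericentrally in all 6 libraries, and the 2 sets did not overlap. Every CWHM-12 library lay above every DMSO library in the periportal clusters, but narrowly, with 1657 CPM in CWHM-12 2 against 1647 in DMSO 2. The share of all genes in that order was not counted there. In the pericentral clusters the groups overlapped. Retsat was higher periportally in all 6 libraries, at 37.3, 69.2 and 99.4 CPM in CWHM-12 1 to 3 and 90.5, 47.96 and 90.3 in DMSO 1 to 3. In the pericentral clusters it was at 20.2, 24.4 and 58.2 CPM in CWHM-12 1 to 3 and 26.5, 31.7 and 48.5 in DMSO 1 to 3. DMSO 2 had 94522 UMIs of all genes in its pericentral clusters and 62553 in its periportal ones. Only a few of them were of Retsat in each zone, so the order in DMSO 2 is not secure. Plin2 was higher pericentrally in 5 of the 6 libraries, the exception being DMSO 3, and Rbp4 higher periportally in 4, the exceptions being CWHM-12 3 and DMSO 3. The cells of a zone come unevenly from the libraries, with 1258 pericentral and 917 periportal cells in CWHM-12 1 against 64 and 34 in DMSO 2, and the clusters were made from these cells, so no test is given.

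**Figure D5:**
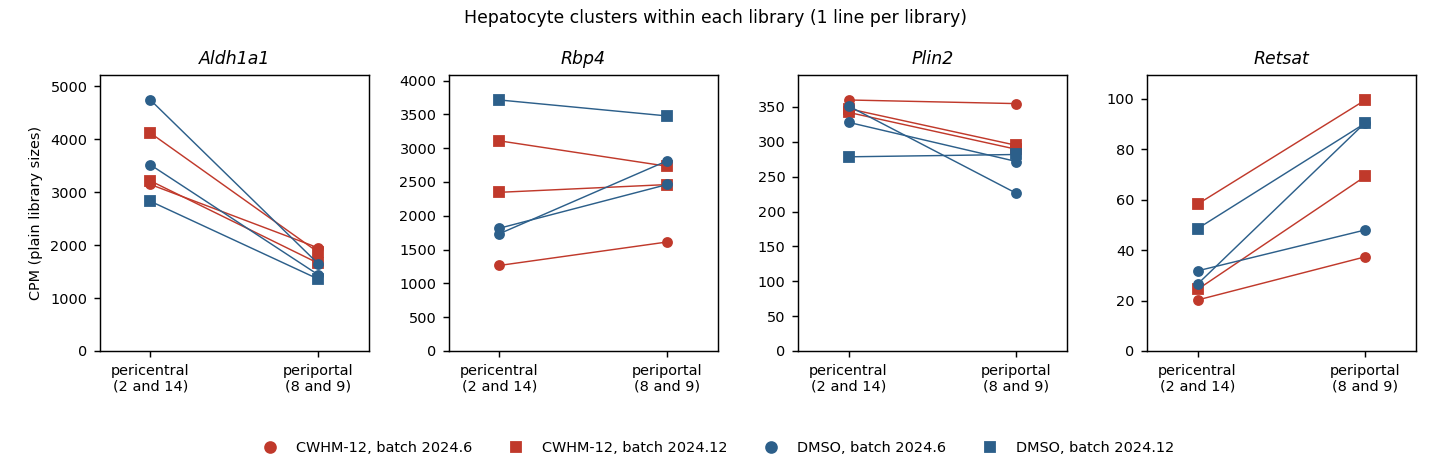
Level of 4 genes (CPM on plain library sizes) in pericentral hepatocyte clusters 2 and 14 and periportal clusters 8 and 9, with 1 line per library, CWHM-12 in red and DMSO in blue, circles for batch 2024.6 and squares for batch 2024.12. All 6 lines fall for Aldh1a1 and rise for Retsat between the pericentral and the periportal clusters. The Retsat line of DMSO 2 rests on a few UMIs in each zone. In the periportal clusters the 3 CWHM-12 libraries lie narrowly above the 3 DMSO libraries for Aldh1a1, at 1657 to 1947 against 1358 to 1647 CPM. The share of all genes in that order was not counted, and DMSO 2 has 34 periportal cells.

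In the other classes Rbp4 had an unadjusted p under 0.05 once, and Retsat, Plin2 and Aldh1a1 each had groups that did not overlap once. Rbp4 in cholangiocytes was at 141, 193 and 260 CPM in CWHM-12 1 to 3, against 307, 225 and 315 CPM in DMSO 1 to 3, a log2 fold change of -0.67 (SE 0.22, edgeR, unadjusted p = 0.0110, adjusted p = 0.999). An unadjusted p under 0.05 with CWHM-12 lower was found for 0.984% of genes there. Alb lay lower in the same sums, at 5716, 6438 and 6245 CPM in CWHM-12 1 to 3, against 7275, 7314 and 9124 CPM in DMSO 1 to 3. The Rbp4 UMIs per 100 of Alb overlapped between the groups, at 2.54, 3.01 and 4.13 against 4.25, 2.96 and 3.47. The 15 hepatocyte markers together took 0.751%, 0.834% and 0.821% of the cholangiocyte UMIs of CWHM-12 1 to 3, against 0.989%, 0.859% and 1.11% in DMSO 1 to 3, and the part of hepatocyte transcripts was not tested.

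Retsat in Kupffer cells, the resident macrophages, was at 45.1, 42.8 and 42.7 CPM in CWHM-12 1 to 3, against 38.9, 26.5 and 35.4 CPM in DMSO 1 to 3. Every CWHM-12 library lay above every DMSO library, as for 5.42% of genes in Kupffer cells, and the log2 fold change was 0.36 (SE 0.19, edgeR, unadjusted p = 0.0982). The order was the same in both large Kupffer clusters, which are parts of the same sums. The share of all genes in that order was not counted within them. In cluster 0 Retsat was at 45.2, 43.2 and 41.4 plain CPM in CWHM-12 1 to 3, against 37.6, 24.5 and 36.4 in DMSO 1 to 3. In cluster 7 it was at 49.0, 54.2 and 58.5 in CWHM-12 1 to 3, against 40.7, 37.8 and 34.98 in DMSO 1 to 3. It was not called.

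Plin2 in conventional dendritic cells was at 65.5, 67.5 and 63.2 CPM in CWHM-12 1 to 3, against 71.2, 108 and 75.8 CPM in DMSO 1 to 3. Every CWHM-12 library lay below every DMSO library, as for 5.62% of genes, and the log2 fold change was -0.30 (SE 0.29, edgeR, unadjusted p = 0.317). Clusters 27 and 28 of this class had 96.6 and 40.3 plain CPM over all libraries, and within cluster 28 the groups overlapped. In cluster 27 Plin2 was at 84.6 and 81.0 CPM in CWHM-12 1 and 2, against 111, 121 and 92.2 CPM in DMSO 1 to 3. These did not overlap, but CWHM-12 3 had under 20 cells there and the share of all genes in that order was not counted. Aldh1a1 in mesothelial cells was at 435 and 436 CPM in CWHM-12 2 and 3, against 554, 559 and 703 CPM in DMSO 1 to 3, below without overlap as for 13.2% of genes. Its log2 fold change was -0.70 (SE 0.35, edgeR, unadjusted p = 0.0834). Aldh1a2 in the same cells was at 287 and 402 CPM in CWHM-12 2 and 3, against 197, 366 and 239 CPM in DMSO 1 to 3, with a log2 fold change of 0.53 (SE 0.48, edgeR, unadjusted p = 0.304).

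The wider vitamin A pathway was read from 7 lists, by count and median beside that of all genes tested. In stellate cells no listed gene was called (0.0% of all genes). Of 13 retinoid carriers and uptake receptors 7 were tested, with 3 positive and 4 negative and a median log2 fold change of -0.01, the same as the median of all genes. Of 22 genes of retinol and retinal oxidation 10 were tested, 7 positive and 3 negative, with a median of 0.12. The most abundant was Bco1, which cleaves carotene, at 306, 261 and 181 CPM in CWHM-12 1 to 3 against 280, 257 and 413 CPM in DMSO 1 to 3, with a log2 fold change of -0.36 (SE 0.28). Of 12 genes of ester synthesis and hydrolysis 6 were tested, with a median of -0.14, and the most abundant of them, Mgll, had a log2 fold change of 0.07 (SE 0.22).

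Of 5 retinoid receptor genes other than Rarb, 4 were tested in stellate cells, 3 positive and 1 negative, with a median of 0.14. Rarg was at 119, 122 and 145 CPM in CWHM-12 1 to 3 against 117, 112 and 105 CPM in DMSO 1 to 3. Every CWHM-12 library lay above every DMSO library, as for 4.0% of all genes tested in stellate cells. The log2 fold change was 0.20 (SE 0.20, edgeR, unadjusted p = 0.349). Of 12 retinoic acid target genes 7 were tested, 5 positive and 2 negative, with a median of 0.28, and of 15 lipid droplet proteins 8, with 6 positive and 2 negative and a median of 0.19. The 1 breakdown enzyme tested, Cyp26b1, was at 13.3, 92.5 and 366 CPM in CWHM-12 1 to 3 against 64.8, 16.7 and 55.2 CPM in DMSO 1 to 3. It is also a leading gene of mixed sub-cluster 4 with its LSEC genes, and the part of that sub-cluster in these values was not tested. G0s2, an inhibitor of the lipase of droplets, was at 142, 151 and 215 CPM in CWHM-12 1 to 3 against 84.3, 26.3 and 221 CPM in DMSO 1 to 3. DMSO 2, the library with the largest share of its stellate UMIs in the mixed sub-clusters, was the lowest of the 6 for G0s2 and Rara.

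In hepatocytes no listed gene was called either. Adh4, an alcohol dehydrogenase that oxidises retinol, was at 161, 142 and 213 CPM in CWHM-12 1 to 3, against 112, 104 and 113 CPM in DMSO 1 to 3, with a log2 fold change of 0.62 (SE 0.30, edgeR, unadjusted p = 0.0684). Every CWHM-12 library lay above every DMSO library, as for 4.57% of genes. Cyp26a1 was at 41.0, 15.8 and 18.9 CPM in CWHM-12 1 to 3, against 19.6, 37.9 and 6.81 CPM in DMSO 1 to 3. Its groups overlapped, and its log2 fold change was 0.91 (SE 0.39, edgeR, unadjusted p = 0.0408). The 18 tested genes of retinol and retinal oxidation had a median of 0.14, with 11 positive and 7 negative, and the 13 lipid droplet proteins one of -0.13, with 5 positive and 8 negative, against 0.01 for all genes. For the 8 carriers and uptake receptors the median was 0.04, for the 10 genes of ester synthesis and hydrolysis -0.08, for the 5 receptors 0.40 and for the 8 target genes 0.30. Rarg, at 6.15 ± 2.84 CPM over the 6 libraries and named after its value was seen, had the lowest log2 fold change of the receptors, -1.02. Both breakdown enzymes tested, Cyp26a1 and Cyp26b1, were positive with an unadjusted p under 0.05 in edgeR. Such a p was found for 182 of all 10339 genes, in either direction. The 3 target genes with such a p include these same 2 enzymes. Cyp26b1 was abundant in LSEC, and the part of LSEC transcripts in its hepatocyte value was not tested.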

How the data were processed

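Single-cell transcriptomes (BD Rhapsody whole transcriptome) were measured in 6 libraries. The deposited values are UMI counts per gene and cell barcode, not normalised. Build GRCm39 is named in the submitters' processing notes; which aligner and cell caller were used is not stated there. The 7 genes and all gene lists were chosen with earlier results of these data known.

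Cells with at least 300 genes and 500 UMIs and at most 30% mitochondrial UMIs were kept, 38697 in all, and 705 with a Scrublet score over 0.25 were removed. The automatic threshold marked 0.483% and was not used. Clustering (scanpy 1.11.5, leidenalg 0.10.2) used 2000 variable genes without the 7, 40 components, 20 neighbours and resolution 1.5, and gave 38 clusters, of which 5 stayed unnamed. Counts were summed per library and class, with at least 20 cells and at least 2 libraries a group, and tested in edgeR 4.0.16 (R 4.3.3) with batch and treatment terms, TMM scaling, edgeR's filter on low counts and Benjamini-Hochberg adjustment over all genes of the class. Fits were tested on simulated data. Shares of cells were compared after thinning, with exact permutation tests. The floors given for a count of 0 cover counting error only. The SE of an edgeR fold change also holds the spread between libraries. Alternatives were DESeq2 1.42.0, limma 3.58.1 voom, other cell filters and class rules, no low-count filter, no batch term, a replicate block, leaving out each library, and choices added after the data were seen. Genes outside the 7 were named as the most abundant of a list, as of smallest unadjusted p in a list with at least 20 CPM in a group, or as most similar in pattern; others were chosen after their values were seen. A few genes that these rules would name are not reported here.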

Additional observations from a re-analysis of the deposited data

Results flagged for a closer look

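Some Lrat signal lay in cells that the comparisons did not use. Clusters left unnamed held 17.2% of the Lrat UMIs in kept cells and 16.5% of all UMIs. Most of it was in cluster 19, whose 558 cells hold markers of stellate cells, Kupffer cells and LSEC together. They carried 4199 Lrat UMIs, 16.1% of the total, at 576 CPM. Portal fibroblasts reached 20 cells only in DMSO 1 and DMSO 3, with Lrat at 212 and 687 CPM. No CWHM-12 library reached 20 such cells, so no comparison was made.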

How the results depend on the processing

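Over 24 settings, 20 fold changes of the 7 genes gave 388 alternative values, of which 369 kept their sign and 19 did not, and 12 of the 20 kept it throughout. No member count moved except to 1 with no filter on low counts (Lrat in mesothelial cells), without CWHM-12 3 (Lrat in mesothelial cells) and without DMSO 1 (Rbp4 in mesothelial cells), a range of 0 to 1 when libraries were left out. Genes called in stellate cells numbered 29 with no filter. In hepatocytes they numbered 2 with DESeq2, 2 with limma voom, 6 with no filter, 5 in clusters 8 and 9 alone, and 0 to 2 when libraries were left out.

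The sign changed for Lrat in stellate cells without DMSO 3 (0.28, range -0.70 to 0.28), Aldh1a1 in stellate cells without DMSO 3 (0.058, range -0.96 to 0.058) and Plin2 in stellate cells under the looser cell filter (-0.029), marker scores alone (-0.024), cluster 19 included (-0.049), without CWHM-12 1 (-0.29) and without DMSO 1 (-0.11), with a range of -0.29 to 0.44. In hepatocytes it changed for Rbp4 with no batch term (0.077), for Aldh1a1 in clusters 2 and 14 alone (-0.0015) and for Retsat with no batch term (0.40), without CWHM-12 1 (0.78) and without DMSO 2 (0.049), with a range of -1.18 to 0.78. It changed for Rarb in LSEC with no batch term (0.17), without CWHM-12 2 (0.032) and without DMSO 3 (0.025), with a range of -0.15 to 0.032, and for Plin2 in Kupffer cells without DMSO 3 (-0.13, range -0.13 to 0.23). Rarb in stellate cells ran from 0.46 to 0.73 when libraries were left out. The cause was not tested.

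The difference in the share of stellate cells with a UMI was 0.936 points for Lrat and -0.876 for Rarb without thinning. Thinned to 500 UMIs it was -6.41 for Lrat, 1.69 for Rarb, -5.61 for Aldh1a1 and 2.599 for Plin2, the last pair with an exact permutation p of 0.1, the smallest that 3 against 3 allows; at 1000 UMIs Aldh1a1 was -1.41 and Plin2 1.03. Leaving out libraries gave -4.48 to 0.940 points for Lrat, -2.82 to 1.26 (0.286 without CWHM-12 3) for Aldh1a1 and 0.453 to 2.14 for Rarb. The Aldh1a2 mean in mesothelial cells was 163 CPM by marker scores alone.

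Replicate numbers were not taken as pairs. In their deviations from the group means, same-numbered stellate sums correlated at 0.16, 0.14 and -0.08 and hepatocyte sums at 0.11, -0.09 and 0.47. LSEC sums correlated at 0.13, -0.04 and -0.04, and Kupffer sums at 0.34, 0.03 and -0.02. Libraries numbered 1 share a batch, as do those numbered 3, while those numbered 2 do not. These correlations therefore cannot tell pairing from batch. With the replicate number as a block, Rbp4 (0.0031) and Retsat (0.17) in hepatocytes and Rarb in LSEC (0.18) changed sign, Rarb in stellate cells was 0.57, and no member was called.

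With 3 libraries a group, the SE of the stellate fold changes ran from 0.21 for Rarb to 0.45 for Rbp4. Mesothelial cells, neutrophils and plasmacytoid dendritic cells lacked 20 cells in at least 1 library. Low counts limit Rarb, with 37 to 117 UMIs a stellate library, and Aldh1a2 outside mesothelial cells.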
